A study of Mus musculus with 24 samples.

Results

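The interferon response genes are transcripts that cells raise when they receive type I interferon, and 33 of them were followed across 8 mouse cell types. A gene was measured where a probeset, the set of array probes that report a transcript, named it alone, and the probeset with the highest mean was used. In this way 31 of the 33 genes were found among the 18820 genes measured. Ifi44 had no probeset naming it alone, and the probesets of Parp9 named several genes, so both were not analysed here.

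Type I interferons are secreted proteins that a cell releases when it detects foreign nucleic acid. They bind a receptor made of Ifnar1 and Ifnar2 on the same or a neighbouring cell, and the kinases Jak1 and Tyk2 then phosphorylate STAT proteins. Stat2 and Irf9 are parts of a complex that binds a DNA element, the interferon-stimulated response element, beside the target genes. The targets include sensors of viral RNA, enzymes and proteins that block viral growth, and Irf7, which drives more interferon. Microglia, the resident macrophages of the brain, and other macrophages keep many of these genes at a basal level, and each of these cell types can raise them further.

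RNA was measured on 24 Affymetrix Mouse Gene 1.0 ST arrays, 3 for each cell type. The induced pluripotent stem cells (iPSC), the microglia derived from such cells (iPS-MG), the microglia of postnatal day 5 (neo-MG) and the adult microglia (ad-MG) were of the strain C57BL/6NCr - Cx3cr1gfp/+, in which gfp replaces a copy of the fractalkine receptor gene Cx3cr1. Plain C57BL/6NCr mice gave the neural stem cells (NSC, embryonic days 15 to 18), the peritoneal macrophages (p-Mac), the macrophages of bone marrow (bm-Mac) and the dendritic cells (DC). All but neo-MG and NSC were labelled adult. The iPSC were kept with leukaemia inhibitory factor on a feeder layer of inactivated mouse embryonic fibroblasts. The growth protocol adds M-CSF, GM-CSF and IL-3, each at 20 ng/mL, for a cell it calls gMG without saying which type that is. DMEM/F12 with serum was the medium of the rest, and the labels name no interferon treatment. The genotype carrying gfp and the microglial cell type cannot be told apart from each other in comparisons with DC, bm-Mac and p-Mac. Where neo-MG is compared with these 3 types, the age label cannot be told apart from them either. In iPS-MG against neo-MG the age label and the derivation cannot be told apart. In NSC against iPSC the genotype, the age label and the cell type cannot be told apart either. The labels do not say whether the 3 samples of a type came from separate animals or cultures, so p-values cover no more than the spread among these samples, possibly a technical one.

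The deposited values are on a log2 scale, so a difference of 1 is 2-fold. Array medians lay between 7.96 and 8.21 and no pair of arrays was identical, with a highest correlation of 0.99857. No detection calls were used, so a level of about 6 to 7 was not read as either present or absent. The word called marks a difference of 2-fold or more whose adjusted p was under 0.05. Differences are given with the standard error of the fit after ±.

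The labels were checked against marker genes. The iPSC arrays held Pou5f1 at 11.84 and Nanog at 13.12, and NSC arrays held Nes at 11.06 and Pax6 at 9.27. The myeloid genes Spi1 and Ptprc lay between 11.90 and 12.65 in all 6 myeloid types. The bm-Mac arrays also carried neutrophil genes, with a mean over 5 markers of 10.29 to 10.36 against 6.60 to 6.70 in neo-MG, and Ngp at 12.53. The ad-MG arrays carried fibroblast genes, with a mean over 8 markers of 10.70 to 10.97 against 8.29 to 8.34 in neo-MG, and the pituitary hormone gene Prl at 11.11. The p-Mac arrays had a mean over 3 B cell markers of 8.15 to 8.61 against 6.48 to 6.54 in neo-MG. The DC arrays were high in Itgax at 13.19 and Ccr7 at 10.28. Their Flt3 at 7.07 and H2-Aa at 11.29 were below the bm-Mac levels of 7.80 and 12.53, their macrophage gene Aif1 stood at 6.36, near its stem cell level, and Gata6, a peritoneal macrophage gene, stood at 10.10. The microglial gene P2ry12 was 10.24 in iPS-MG, 10.23 in neo-MG and 10.56 in ad-MG, and at most 8.60 in the other types. The mean over 6 microglial markers, P2ry12 among them, was 10.12 to 10.16 in iPS-MG, 10.04 to 10.15 in neo-MG and 10.67 to 10.96 in ad-MG. In the other types it was at most 9.04. Of the 6 markers, 3 were called lower in neo-MG and 3 in iPS-MG than in ad-MG, where 4.43% and 4.28% of all genes were. Against p-Mac 3 of the 6 were called higher in neo-MG, where 6.02% of all genes were. In these bulk samples, fewer cells of a type and less RNA per cell cannot be told apart, and the part of these other cells in the results below was not tested.

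The promoter letters of the genes are shown first because the response element is what many of these genes share by function. RefSeq promoter windows, from 250 bases before to 50 bases after a start site on GRCm38.p6, were found for 24 of the 33 genes. In 60.4% of all 32851 windows this site was the annotated edge of the gene. Below, the start means the start site of the window. The core of the element was searched on both strands as GAAA, any 2 bases and GAAA again. It was present in 13 of the 24 genes, or 54.2%, and in 1079 of all 27025 genes with a window, or 3.99%. A STAT-type palindrome, TTCNNNGAA, was present in 7 of the 24 genes, or 29.2%, against 9.55% of all genes. In 9 genes a match to the core lay wholly before the start, in 4 it lay only across or after it, and 7 genes held at least 2 matches over all their windows. Several windows were listed for 5 of the 24 genes, and in 2 genes, Bst2 and Ifitm3, a match to the core overlapped the palindrome. The stretches below come from 8 of the 9 genes with a match before the start, as examples of single, paired and overlapping matches, and Trim30a is not shown. They are written 5′ to 3′ along the gene with the matched letters in capitals. A match on the other strand reads TTTC, any 2 bases and TTTC.
Isg15 (chr4:156200850-156200921, minus strand): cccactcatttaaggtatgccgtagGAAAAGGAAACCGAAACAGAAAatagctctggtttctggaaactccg
Bst2 (chr8:71537562-71537627, minus strand): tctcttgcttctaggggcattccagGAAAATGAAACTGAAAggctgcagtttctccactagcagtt
Ifit1 (chr19:34640760-34640838, plus strand): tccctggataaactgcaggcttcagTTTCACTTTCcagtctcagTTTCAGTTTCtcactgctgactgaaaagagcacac
Ifit3 (chr19:34583348-34583441, plus strand): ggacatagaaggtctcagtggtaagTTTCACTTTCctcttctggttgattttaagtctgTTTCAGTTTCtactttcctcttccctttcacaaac
Rsad2 (chr12:26456538-26456597, minus strand): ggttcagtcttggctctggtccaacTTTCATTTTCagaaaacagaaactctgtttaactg
Oas3 (chr5:120777700-120777759, minus strand): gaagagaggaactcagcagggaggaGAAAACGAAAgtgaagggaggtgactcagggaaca
Oas1a (chr5:120907526-120907570, minus strand): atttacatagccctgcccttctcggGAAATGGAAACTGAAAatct
Stat2 (chr10:128270251-128270310, plus strand): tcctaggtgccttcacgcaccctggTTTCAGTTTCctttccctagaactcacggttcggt

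In Isg15, 3 matches overlapped in a single run, and in Bst2 and Oas1a 2 matches overlapped. In Ifit1 and Ifit3 the 2 matches were apart from each other. The windows of Adar, Cmpk2, Ifi35, Ifi44, Ifit2, Irf7, Irf9, Oasl1, Oasl2, Sp100 and Xaf1 held no match to these letters. The genes Dhx58, Mx1, Mx2, Oas2, Parp9, Parp14, Rtp4, Usp18 and Zbp1 had no window in the table.

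Across the 8 cell types the interferon response genes were highest in bone marrow macrophages, for 29 of the 31 genes. Of these 29, the next type was called lower for 9, and it was lower at the adjusted p alone for 27. Ifit1 and Ifi35 were not told apart from the next type. After bm-Mac came iPS-MG and neo-MG, and these 3 types were the 3 highest for 27 genes. Such counts of the order were not made over all genes. The lowest type was NSC for 17 genes and iPSC for 12, while it was ad-MG for Oasl1 and DC for Rtp4. Both stem cell types lay below all 6 myeloid types for 19 of the 31 genes. Among the 6 myeloid types the lowest was DC for 16 genes, p-Mac for 8 and ad-MG for 7. The range from the lowest to the highest cell type had a median of 3.62 over the 31 genes and of 0.92 over all genes. It ran from 1.39 for Isg15 to 6.67 for Trim30a. Differences between the arrays of a type were small beside these ranges. The median SD over the genes lay between 0.0558 in iPS-MG and 0.134 in ad-MG, where over all genes it was 0.0722 and 0.0888.

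**Figure D1:**
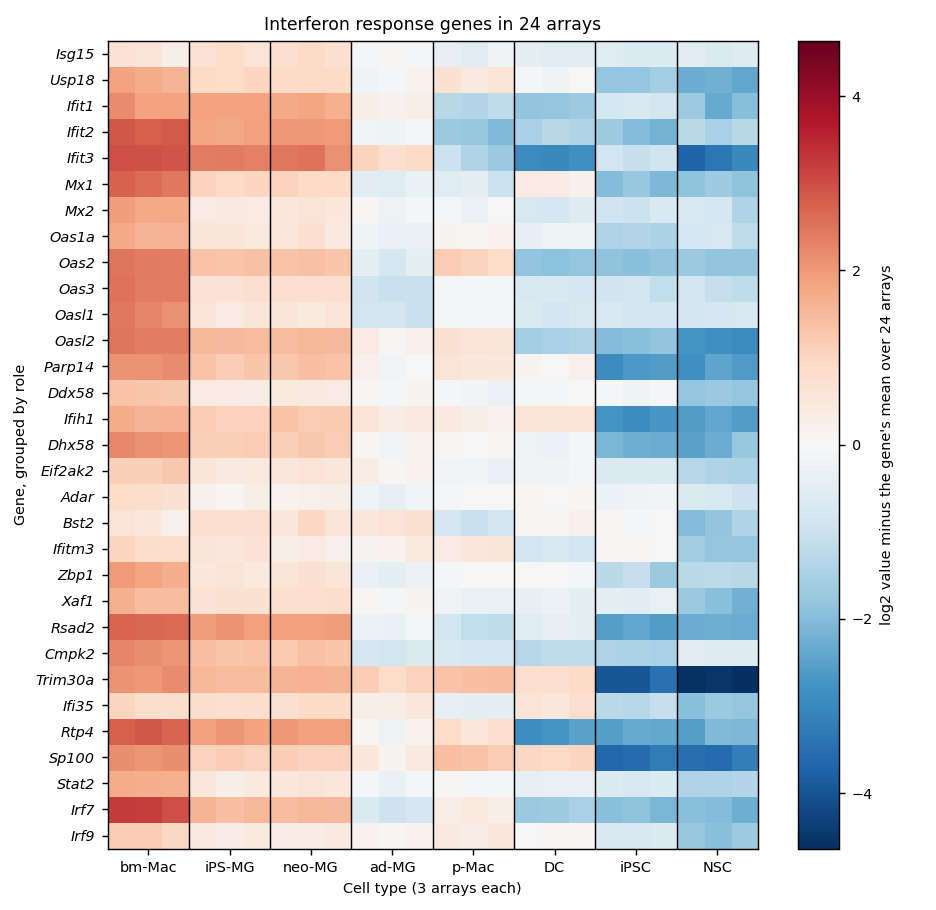
Colour shows the log2 value of each of 31 interferon response genes (rows, grouped by role) in each of 24 arrays (columns, 3 per cell type), minus the mean of the gene over all arrays. The bm-Mac columns are red throughout, iPS-MG and neo-MG look alike, and the rows part in p-Mac and DC, where Oas2 and Rtp4 are red in p-Mac and blue in DC.

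The transcription factors differed widely in range. Irf7, the factor that amplifies interferon production, was 12.56, 12.52 and 12.33 in the 3 bm-Mac arrays, 10.89, 10.73 and 10.85 in iPS-MG, while the neo-MG arrays had 10.74, 10.85 and 10.83. It was 9.65, 9.77 and 9.63 in p-Mac, 8.69, 8.35 and 8.56 in ad-MG, with DC arrays at 7.59, 7.67 and 7.82. The iPSC arrays had 7.37, 7.45 and 7.19 and the NSC arrays 7.38, 7.33 and 7.05. Within the myeloid types no arrays overlapped other than those of iPS-MG and neo-MG, and the step from each type to the next lower passed an adjusted p of 0.05 down to iPSC, apart from iPS-MG against neo-MG (limma, Benjamini-Hochberg). Stat2 and Irf9, subunits of the complex that binds the response element, had narrower ranges. Stat2 averaged 11.88 in bm-Mac and between 9.83 and 10.73 in the other myeloid types, and Irf9 averaged 11.25 in bm-Mac and between 10.20 and 10.56 in the others. The iPSC means were 9.53 for Stat2 and 9.46 for Irf9, and the NSC means, 8.80 and 8.37, were the lowest of the 8 types.

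Among the receptors of viral RNA, Ddx58 (RIG-I), Ifih1 (MDA5) and Dhx58 (LGP2), the order of the myeloid types was the same at the top, bm-Mac then neo-MG then iPS-MG. Ddx58 stood at 10.91, 10.81 and 10.93 in the iPSC arrays, inside or beside the ranges of p-Mac (10.72 to 10.90) and DC (10.94 to 10.98), and at 9.20, 9.29 and 9.21 in NSC. Ifih1 was 6.89, 6.74 and 6.97 in iPSC and lay between 9.84 and 11.38 in all 18 myeloid arrays, so that no stem cell array overlapped a myeloid array. Dhx58 separated in the same way, with a highest stem cell value of 7.78 and a lowest myeloid value of 9.29. Of these 3 receptors, Ddx58 was the one whose iPSC mean was not told apart from its means in DC and p-Mac.

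The enzymes that bind double-stranded RNA, Eif2ak2 (the kinase PKR, which halts translation) and Adar (an RNA editing enzyme), had narrow ranges. Eif2ak2 averaged 10.85 in bm-Mac, 9.51 in p-Mac and 8.29 in NSC. Adar averaged 10.70 in bm-Mac, 9.67 in ad-MG and 9.12 in NSC, and its iPSC mean of 9.72 was not told apart from the ad-MG mean. Zbp1, a sensor of Z-form nucleic acid that can start cell death, averaged 11.16 in bm-Mac and 8.99 to 9.94 in the other myeloid types. Xaf1, a promoter of apoptosis, averaged 10.60 in bm-Mac, 8.73 in DC and 7.12 in NSC.

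The Oas family holds oligoadenylate synthetases, which switch on an RNA-cleaving enzyme, and the related Oasl proteins. All 5 measured members were highest in bm-Mac. Oas2 was 11.93, 11.84 and 11.83 in bm-Mac, 10.75, 10.81 and 10.73 in neo-MG, 10.63, 10.46 and 10.31 in p-Mac, 8.98, 8.64 and 9.00 in ad-MG, with DC arrays at 7.62, 7.53 and 7.67. The DC arrays overlapped those of iPSC at 7.58, 7.50 and 7.60, and the DC mean was not told apart from either stem cell mean. Oasl2 was high in every myeloid type but DC, with means of 12.87 in bm-Mac, 11.96 in neo-MG, 11.08 in p-Mac and 10.68 in ad-MG against 8.96 in DC. Oas3 and Oasl1 had another order, in that ad-MG arrays overlapped those of iPSC. Oas3 was 7.68, 7.57 and 7.58 in ad-MG and 7.68, 7.76 and 7.48 in iPSC, and Oasl1 was 8.08, 8.10 and 7.92 in ad-MG and 8.23, 8.10 and 8.11 in iPSC. Oas1a averaged 10.74 in bm-Mac, 9.65 in neo-MG, 9.21 in p-Mac, 8.82 in DC and 8.81 in ad-MG.

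The Ifit proteins bind viral RNA, and their genes had lower means in p-Mac and DC than in the other myeloid types. Ifit3 was 12.79, 12.73 and 12.70 in bm-Mac, 12.17, 12.20 and 12.11 in iPS-MG, while the neo-MG arrays had 12.23, 12.32 and 11.91. It was 10.81, 10.58 and 10.69 in ad-MG, 8.79, 8.38 and 8.08 in p-Mac and 6.82, 6.81 and 6.94 in DC. The iPSC arrays, at 8.89, 8.72 and 8.85, lay above all DC arrays, and the NSC arrays had 6.08, 6.45 and 6.78. Ifit1 followed the same order, from 10.98 in bm-Mac and 9.26 in ad-MG to 7.73 in p-Mac and 7.24 in DC, with iPSC at 8.23. Ifit2 averaged 11.53 in bm-Mac, 8.57 in ad-MG, 7.31 in DC and 6.85 in p-Mac, where it was not told apart from its iPSC mean of 6.75.

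Rsad2 (viperin) and Cmpk2 are neighbours in function, since both act on nucleotides that viral polymerases use. Rsad2 was 12.28, 12.26 and 12.20 in bm-Mac, 11.52, 11.67 and 11.48 in iPS-MG, while the neo-MG arrays had 11.48, 11.49 and 11.52. It was 9.33, 9.28 and 9.53 in ad-MG, 8.74, 8.45 and 8.40 in p-Mac and 9.03, 9.19 and 9.15 in DC. The 3 types named first stood well above the others, and no array of one set overlapped the other set. Cmpk2 made the same step, from 10.42 in neo-MG to 8.36 in ad-MG, 8.36 in p-Mac and 7.90 in DC. The NSC mean of Cmpk2, 8.56, lay above these 3. The Mx genes belong to a family of GTPases that act against viruses, and whether these mice make a working Mx protein was not tested. Mx1 averaged 10.58 in bm-Mac, 8.96 in neo-MG and 8.32 in DC, above 7.54 in ad-MG and 7.33 in p-Mac. Mx2 averaged 8.93 in bm-Mac and 6.39 to 7.63 in the other myeloid types.

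By their probesets, Isg15 and Bst2 were the exceptions to the bm-Mac order. The number of the Isg15 probeset lies near that of Eif2ak2, a gene of chromosome 17. It lies away from that of Ddx58, which like Isg15 is on chromosome 4. Whether this probeset reports Isg15 itself was not tested. Isg15, a ubiquitin-like protein attached to others, was 8.50, 8.62 and 8.44 in neo-MG, 8.40, 8.57 and 8.36 in iPS-MG and 8.41, 8.35 and 8.04 in bm-Mac. The iPS-MG arrays overlapped those of the other 2 types, while every neo-MG array lay above the bm-Mac arrays, with a difference of 0.25 ± 0.091. The ad-MG arrays, at 7.70, 7.78 and 7.69, were below all 3 types. Usp18, the protease that removes Isg15 and dampens the receptor, averaged 11.78 in bm-Mac, 10.96 in neo-MG and 9.96 in DC. Bst2 (tetherin), which holds budding virus on the cell, was 11.44, 11.39 and 11.39 in iPS-MG, 11.17, 11.60 and 11.29 in neo-MG, 11.15, 11.27 and 11.34 in ad-MG and 11.29, 11.12 and 10.89 in bm-Mac. Neighbouring means among those 4 types were not told apart, though every iPS-MG array lay above the bm-Mac arrays. Bst2 was 9.87, 9.60 and 9.74 in p-Mac, below the iPSC arrays at 10.72, 10.57 and 10.62. Ifitm3, which blocks virus entry in endosomes, was at 12.49, 12.50 and 12.46 in iPSC, above the DC arrays at 11.54, 11.69 and 11.56.

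The remaining genes differed in which myeloid types, if any, stood near the stem cells. Trim30a, a regulator of inflammatory signalling, averaged 11.61 to 12.90 in the myeloid types, 7.01 in iPSC and 6.23 in NSC. Sp100, a nuclear body protein, averaged 10.23 to 12.01 in the myeloid types and 6.40 and 6.46 in iPSC and NSC. Parp14, an ADP-ribosyl transferase, averaged 9.90 to 11.99 in the myeloid types and 7.14 and 7.22 in the stem cells. For these 3 genes no stem cell array overlapped a myeloid array. Rtp4 was 12.39, 12.52 and 12.33 in bm-Mac, 10.47, 10.12 and 10.36 in p-Mac, 9.71, 9.40 and 9.79 in ad-MG, with DC arrays at 6.75, 6.86 and 7.15, and the DC mean was below those of both stem cells. Ifi35 averaged 9.76 in bm-Mac, 9.71 in neo-MG, 9.68 in iPS-MG, 9.49 in DC and 8.48 in p-Mac. Neighbouring means down to DC were not told apart, while DC was below bm-Mac by a difference of -0.27 ± 0.079 that passed the adjusted p alone.

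**Figure D2:**
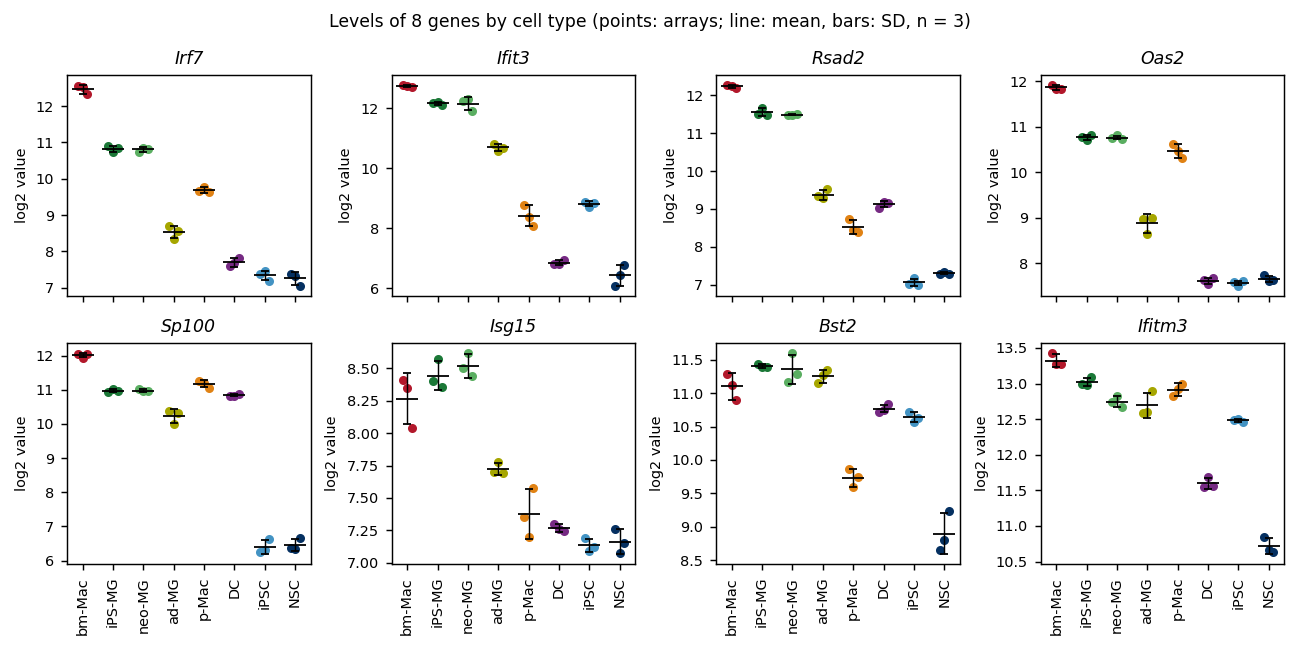
The log2 values of 8 genes in each array (points, coloured by cell type), with the mean (line) and SD (bars, n = 3), for each of 8 cell types. The scales differ between panels. Irf7 falls in steps from 12.47 in bm-Mac to 7.69 in DC, Sp100 runs from 10.23 to 12.01 in the myeloid types and stays at 6.40 and 6.46 in the stem cells, and Bst2 is lowest among myeloid types in p-Mac.

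The derived microglia were set against the pluripotent cells to show what differed after derivation. All 31 genes were higher in iPS-MG at the adjusted p alone, where 30.4% of all genes were, and 27 of the 31 were called higher, where 10.4% of all genes were. None was called lower, where 11.8% of all genes were. The median difference over the genes was 2.64, and 0.02 over all genes. The largest were Trim30a at 5.30 ± 0.092, Sp100 at 4.57 ± 0.098, Rsad2 at 4.50 ± 0.079 and Rtp4 at 4.37 ± 0.12. The largest adjusted p among the 27 was 6.35e-10, for Mx2 (limma, Benjamini-Hochberg). Under 2-fold were Bst2 at 0.77, Ifitm3 at 0.54, Ddx58 at 0.49 and Adar at 0.38. The iPSC arrays had a fibroblast marker mean of 9.20 to 9.32, against 8.34 to 8.36 in iPS-MG, and the part of feeder cells in these differences was not tested.

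The 2 stem cell types were compared with each other in the same way. In NSC 7 of the 31 genes were lower than in iPSC, where 9.97% of all genes were called lower, and 0 were called higher with limma, where 7.25% were. The median difference was -0.08, and 19 of the 31 genes had an unadjusted p under 0.05, where 12899 of all 18820 genes had one. The 7 lower genes were Ifit3 (-2.39 ± 0.14), Ifitm3 (-1.77 ± 0.078), Bst2 (-1.74 ± 0.12), Ddx58 (-1.65 ± 0.061), Xaf1 (-1.55), Ifit1 (-1.22) and Irf9 (-1.09). Their largest adjusted p was 1.19e-10 (limma, Benjamini-Hochberg). The highest difference in the other direction was Cmpk2 at 0.90 ± 0.066. Oas2, Isg15 and Sp100 differed by 0.09, 0.03 and 0.06.

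Derived and neonatal microglia were compared to ask how near the derived cells came to primary ones. None of the 31 genes was called in either direction with limma, where 0.0266% of all genes were called higher and 0% lower. An unadjusted p under 0.05 was found for 1 of the 31 genes and for 1225 of all 18820 genes. The median difference was -0.03, and -0.01 over all genes. The differences ran from -0.17 ± 0.099 for Ifit2 to 0.27 ± 0.078 for Ifitm3, and 30 of the 31 lay within 0.2 of zero. Ifitm3 had an adjusted p of 0.329 (limma, Benjamini-Hochberg). In 30 of the 31 genes iPS-MG and neo-MG were next to each other in the order of the 8 types, and they were told apart in 0 of these. Over all genes 0.213% passed the adjusted p alone. The order and the limit of 0.2 were not counted over all genes, so these counts are not read as particular to the interferon response genes. A p that misses the threshold does not show that the levels are equal, and the standard errors of the differences were 0.061 to 0.14.

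Adult microglia were called lower than both neonatal and derived microglia for 14 of the 31 genes, the same 14 in each comparison. All 31 means were lower in ad-MG than in either. At the adjusted p alone 29 genes were higher in neo-MG than in ad-MG, where 24.4% of all genes were. In iPS-MG 30 were, where 21.8% of all genes were. In neo-MG against ad-MG 14 genes were called higher, where 1.28% of all genes were, and 0 lower, where 4.43% were. The median difference was 0.94 against 0.06 over all genes. In iPS-MG against ad-MG 14 genes were also called higher, where 1.2% of all genes were, and 0 lower, where 4.28% were, with a median of 0.84. These 2 comparisons share the ad-MG arrays. Against neo-MG the largest were Irf7 at 2.27 ± 0.094, Ifit2 at 2.15 ± 0.099, Rsad2 at 2.12 ± 0.079 and Cmpk2 at 2.05 ± 0.066. They were followed by Rtp4 at 1.95, Oas2 at 1.89, Oas3 at 1.75, Ifit1 at 1.49, Ifit3 at 1.46, Oasl1 at 1.46, Mx1 at 1.42, Oasl2 at 1.28, Parp14 at 1.28 and Dhx58 at 1.15. The largest adjusted p among the 14 was 3.86e-09 (limma, Benjamini-Hochberg). The smallest differences were Ifitm3 at 0.06, Bst2 at 0.10, Irf9 at 0.22, Eif2ak2 at 0.38 and Ddx58 at 0.39. All 8 fibroblast markers were higher in ad-MG than in neo-MG, with the array means given above, and their part in these differences was not tested. Replicate 2 of ad-MG lay above its group mean for 3 of the 31 genes, with a median deviation of -0.109.

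Nearly all of the genes were lower than in bone marrow macrophages at the adjusted p alone, and the number called at 2-fold was smaller in neo-MG than in DC, p-Mac and ad-MG. At the adjusted p alone 31 were lower in DC, where 24.5% of all genes were, and 31 in p-Mac, where 27.6% were. In ad-MG 30 were lower, where 34.4% of all genes were, and in neo-MG 27, where 22.3% were. With the 2-fold rule, 28 of the 31 genes were called lower in DC, where 4.67% of all genes were. In p-Mac 25 were called lower, where 4.44% of all genes were, and in ad-MG 25, where 3.58% were. In neo-MG 10 were called lower, where 3.12% were. None of the 31 was called higher than in bm-Mac, where the shares of all genes called higher were 3.41% in DC, 1.73% in p-Mac, 5.38% in ad-MG and 2.1% in neo-MG. The 4 comparisons share the bm-Mac arrays. The medians were -2.01, -1.70, -1.91 and -0.82 in that order, against -0.02, 0.10, -0.09 and -0.03 over all genes. The neutrophil marker mean was 10.29 to 10.36 in the bm-Mac arrays, 7.28 to 7.40 in p-Mac and 6.44 to 6.82 in the DC, ad-MG and neo-MG arrays, and its part in these differences was not tested.

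The 4 genes furthest below bm-Mac were taken for each type. In DC they were Ifit3 at -5.88 ± 0.14, Rtp4 at -5.49 ± 0.12, Irf7 at -4.78 ± 0.094 and Oas2 at -4.26 ± 0.082. In p-Mac they were Ifit2 at -4.68 ± 0.099, Ifit3 at -4.32 ± 0.14, Rsad2 at -3.71 ± 0.079 and Ifit1 at -3.26 ± 0.11. In ad-MG they were Irf7 at -3.94 ± 0.094, Oas3 at -3.42 ± 0.073, Oasl1 at -3.19 ± 0.079 and Mx1 at -3.04 ± 0.11. In neo-MG they were Oasl1 at -1.72 ± 0.079, Oas3 at -1.68 ± 0.073, Irf7 at -1.66 ± 0.094 and Mx1 at -1.62 ± 0.11. The Oas family, Mx genes and Irf7 made up 7 of the 10 genes called lower in neo-MG, with Zbp1 at -1.21, Stat2 at -1.15 and Sp100 at -1.04, while the Ifit genes at -0.82 to -0.23 were not among them. The largest adjusted p among the called genes was 5.62e-10 in DC, 3.12e-10 in p-Mac, 1.9e-10 in ad-MG and 1.96e-09 in neo-MG (limma, Benjamini-Hochberg). Uncalled in DC were Adar at -0.73, Bst2 at -0.33 and Ifi35 at -0.27. Within bm-Mac, replicate 1 lay above its group mean for 27 of the 31 genes and replicate 3 for 5, with median deviations of 0.091 and -0.072, and without replicate 1 the genes called lower than in bm-Mac numbered 27 in DC, 25 in p-Mac, 24 in ad-MG and 10 in neo-MG.

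**Figure D3:**
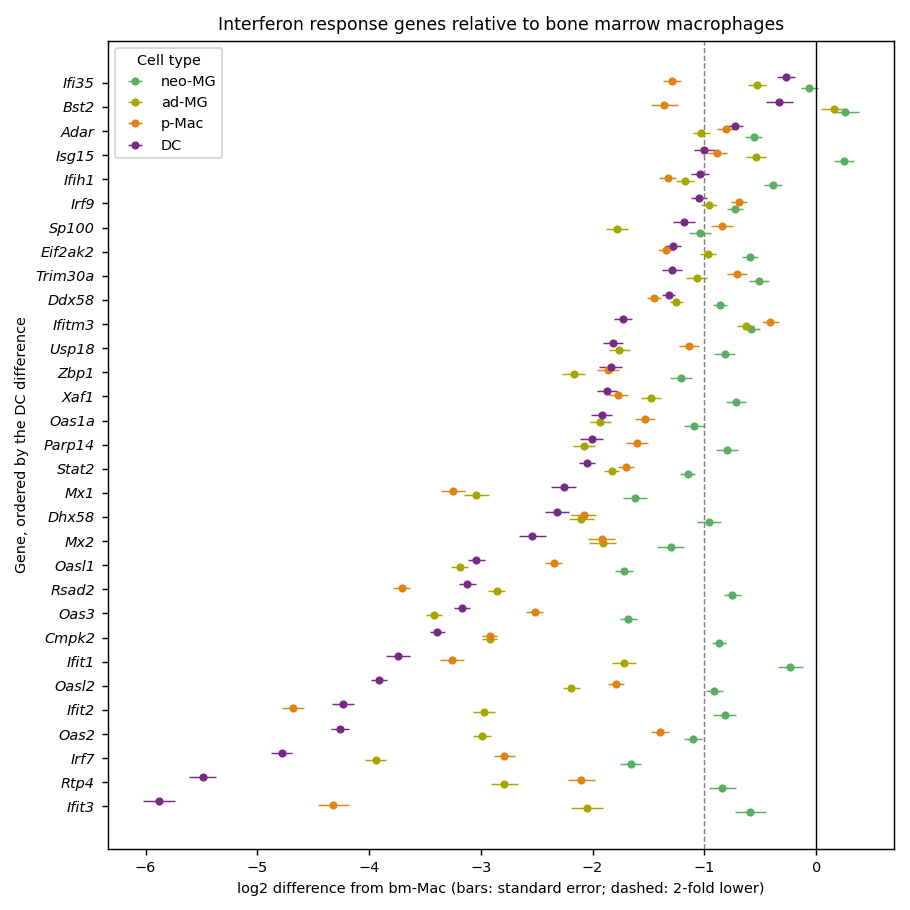
Log2 difference from bm-Mac (horizontal axis, bars are standard errors) for each of the 31 genes in neo-MG, ad-MG, p-Mac and DC. The dashed line marks 2-fold lower. Points of neo-MG stay right of -2, and the DC and p-Mac points part for Oas2, Rtp4 and Irf7, where DC is lower, and for Ifit2, Rsad2 and Bst2, where p-Mac is lower.

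Against peritoneal macrophages neonatal microglia were higher in 13 of the 31 genes, where 6.02% of all genes were called higher, and lower in 0, where 3.1% were. The median difference was 0.84. Ifit2 (3.86 ± 0.099), Ifit3 (3.74 ± 0.14), Ifit1 (3.03 ± 0.11) and Rsad2 (2.97 ± 0.079) led, and the largest adjusted p among the 13 was 3.26e-09 (limma, Benjamini-Hochberg). Sp100 at -0.20, Ifitm3 at -0.17 and Irf9 at -0.04 were the genes with a mean below p-Mac. Adult microglia had a mixed pattern, with 4 genes called higher, where 7.5% of all genes were, and 2 lower, where 2.74% were. At the adjusted p alone 10 were higher, where 28.9% of all genes were, and 15 lower, where 49.3% were. The median difference was -0.13, and -0.16 over all genes. Higher were Ifit3 (2.28 ± 0.14), Ifit2 (1.71 ± 0.099), Ifit1 (1.54 ± 0.11) and Bst2 (1.52 ± 0.12), and lower were Oas2 (-1.59 ± 0.082) and Irf7 (-1.15 ± 0.094). The Ifit genes thus stood higher in adult microglia and Oas2 and Irf7 stood higher in p-Mac. The largest adjusted p among these 6 was 6.15e-11 (limma, Benjamini-Hochberg). The B cell markers of the p-Mac arrays, given above, were also higher in p-Mac, and their part was not tested.

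Against dendritic cells neonatal microglia were higher in 18 of the 31 genes, where 4.17% of all genes were called higher, and lower in 0, where 3.96% were. All 31 differences were above 0, with a median of 1.15. The largest were Ifit3 at 5.29 ± 0.14, Rtp4 at 4.65 ± 0.12, Ifit1 at 3.51 ± 0.11 and Ifit2 at 3.41 ± 0.099. The DC means of Ifit3 and Rtp4, 6.86 and 6.92, lie in the range not read as present or absent, so no fold is given. The largest adjusted p was 3.18e-09 (limma, Benjamini-Hochberg). Adult microglia were higher than DC in 7 genes, where 6.13% of all genes were, and lower in 0, where 3.12% were. The 7 were led by Ifit3 at 3.83 ± 0.14, Rtp4 at 2.71 ± 0.12, Ifit1 at 2.02 ± 0.11 and Oasl2 at 1.72 ± 0.074. In that comparison the lowest value was Mx1 at -0.77 ± 0.11, under 2-fold. The 2 comparisons share the DC arrays.

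Dendritic cells and peritoneal macrophages were then compared directly. In DC 6 genes were lower, where 3.63% of all genes were, and 2 were higher, where 6.52% were. Lower were Rtp4 (-3.39 ± 0.12), Oas2 (-2.86 ± 0.082), Oasl2 (-2.12 ± 0.074), Irf7 (-1.99 ± 0.094), Ifit3 (-1.56 ± 0.14) and Ifitm3 (-1.32 ± 0.078). Higher were Bst2 (1.03 ± 0.12) and Ifi35 (1.01 ± 0.079), with Mx1 at 0.98 just under the fold rule. The count of higher genes was 1 after a second quantile normalization, 1 without DC replicate 3 or p-Mac replicate 2, and up to 3 without another array. The largest adjusted p among these 8 was 3.06e-08 (limma, Benjamini-Hochberg).

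The genes around the response were read from lists of the same pathway. Of the 20 interferons 14 were measured, and 0 were called by limma in any of the 14 comparisons. Of all genes 0.0266% were called in iPS-MG against neo-MG and 5.23% to 22.2% in the other comparisons. Of the 196 tests of interferons 50 had an unadjusted p under 0.05, and 38 passed the adjusted p alone (limma, Benjamini-Hochberg). Over all 18820 genes 1225 had an unadjusted p under 0.05 in iPS-MG against neo-MG, and 8875 to 14936 in the other comparisons. The adjusted p alone was passed by 0.213% of all genes in iPS-MG against neo-MG and by 41.3% to 78.2% in the others. The largest difference of an interferon was 0.89, for Ifna16, and Ifnb1 stayed between 6.51 and 6.82. Of the 16 genes of the receptors and their signalling, 15 were measured. The receptor chain Ifnar1 was 9.84 in iPSC and 11.62 in iPS-MG, a difference of 1.78 ± 0.056, and Ifnar2 rose by 2.08 ± 0.056. In DC Ifnar1 was 10.91, lower than its 12.01 in bm-Mac by 1.10 ± 0.056. Jak1 stayed between 11.11 and 12.55 and Tyk2 between 8.17 and 10.44.

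Some feedback genes of the pathway were higher in dendritic cells than in neonatal microglia. Socs3, an inhibitor of cytokine signalling, was 11.70 in DC and 8.99 in neo-MG, and Socs1, which acts on the interferon receptor, was 9.81 and 8.19. Jak2 and the phosphatase gene Ptpn2 were also higher in DC than in neo-MG, with neo-MG minus DC at -1.65 ± 0.075 and -1.13 ± 0.10. These 4 were the called genes of the 15 in that comparison, where 3.96% of all genes were called higher in DC. Of the interferon regulatory factors, Irf4 was 12.42 in DC and 7.55 in neo-MG, while Irf8 was 11.37 in DC and 12.47 in neo-MG, and Irf3 stayed between 9.57 and 10.07 in all 8 types. Of the sensors and adaptors 17 of 20 were measured, and 12 were called higher in iPS-MG than in iPSC, where 10.4% of all genes were. Among them Tlr7, a receptor of single-stranded RNA in endosomes, stood at 12.79 against 5.58 and the DNA pathway adaptor Sting1 at 10.99 against 8.35. Tlr3, a receptor of double-stranded RNA, was higher in neo-MG than in DC by 1.44 ± 0.067.

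The interferon-inducible GTPases, many of which respond mainly to interferon gamma, divided between neo-MG and DC. Of the 9 measured, 3 were called higher in neo-MG, where 4.17% of all genes were, and 5 were called higher in DC, where 3.96% were. Iigp1 (1.74 ± 0.13), Gbp9 (1.29 ± 0.086) and Irgm1 (1.01 ± 0.073) were higher in neo-MG. Gbp8, at 10.99 in DC and 7.95 in neo-MG, Gbp7, at 11.05 and 9.40, and Gbp2, at 10.82 and 9.33, were higher in DC, with Gbp4 and Gbp5. Their median difference, neo-MG minus DC, was -1.08, beside 1.15 for the 31 interferon response genes. Against bm-Mac 3 of the 9 were called lower in DC, where 4.67% of all genes were, and 1, Gbp8, was higher, where 3.41% were. A further 48 of 57 interferon-induced genes were measured. In neo-MG 13 of them were called higher than in DC, where 4.17% of all genes were, with Ifi205 at 4.02 ± 0.15 and Phf11d at 3.26 ± 0.12. Against ad-MG 14 were called higher in neo-MG, where 1.28% of all genes were, and 1, the chemokine gene Ccl12, was lower, at 10.10 against 11.98, where 4.43% of all genes were.

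**Figure D4:**
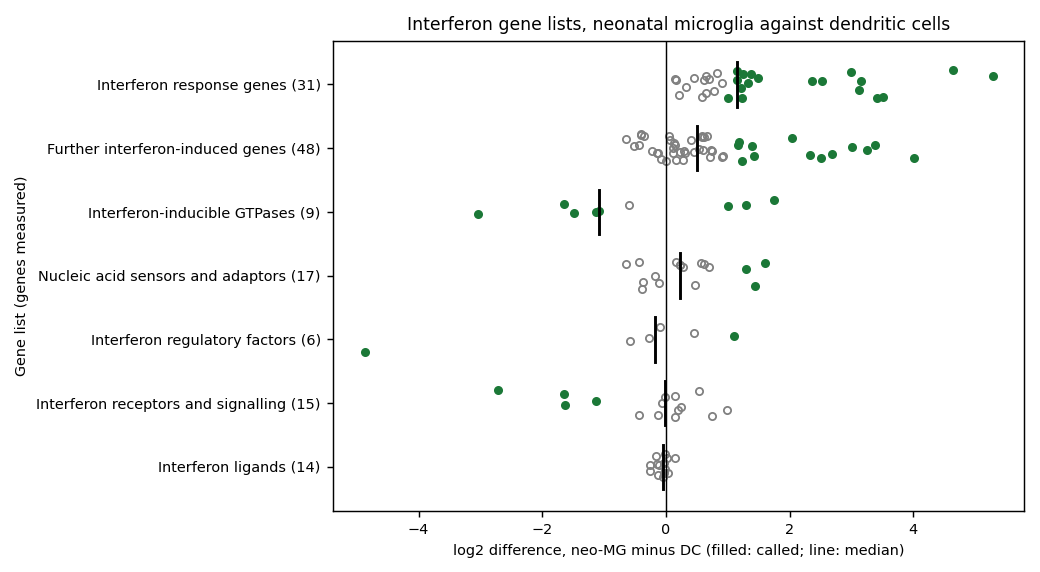
Log2 difference, neo-MG minus DC, for each gene (points) of 7 lists, with the number measured in brackets. Filled points were called, and the line is the median of the list. The 31 interferon response genes lie right of 0, ligands lie between -0.26 and 0.14, and GTPases lie on both sides, with Gbp8 at -3.04 and Iigp1 at 1.74.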

How the data were processed

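The deposited table holds log2 values of 35556 probesets on 24 arrays, and the submitters' processing notes name RMA and Partek. That the scale is log2 was read from the range, 3.14 to 14.43, and from RMA's usual output. Per the labels' protocols, miRNeasy served for extraction and 200 ng of RNA per array was biotin-labelled. The chip definition and any filter on probesets are not given in the sources used here.

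Platform annotation gave 21218 probesets with 1 gene symbol, 1881 with several and 12457 with none, and the last 2 kinds were left out. Of the single-gene probesets 21185 matched a RefSeq gene by Entrez ID, and 0 symbols changed. For 1386 genes with more than 1 probeset, the highest mean over arrays was used, which left 18820 genes. None of the 31 measured genes had more than 1 probeset.

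Differences came from limma 3.58.1 in R 4.3.3, with 1 fit to all 24 arrays, 1 mean per cell type, and Benjamini-Hochberg adjustment over all 18820 genes in each comparison. The precision is limited by 3 arrays per type. The procedure was tested on simulated data. Alternatives covered scaling, the replicate number as a block, a filter on low means, probeset averaging, the variance model, the arrays in the fit and each array left out. The 33 genes, the related lists and the named genes were chosen with earlier results of these data known. The rule named, in each comparison, the 4 called genes furthest up and the 4 furthest down, a fixed set of pathway genes, and each of the 31 genes at least once. Marker genes and list genes beyond it were chosen after their values were seen. Promoter windows were from RefSeq.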

Additional observations from a re-analysis of the deposited data

How the results depend on the processing

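The counts of interferon response genes called kept within 1.5 times of the reported ones under every alternative, apart from a count of 1 gene higher in NSC than in iPSC, Cmpk2, in place of 0 after each array was centred on its median, and a count of 1 in place of 2 higher in DC than in p-Mac after a second quantile normalization. Leaving out 1 array gave 1 to 3 genes higher in DC than in p-Mac, 1 without DC replicate 3 or p-Mac replicate 2. Centring moved the median of all genes by 0.1 or more in 5 comparisons, from 0.02 to 0.12 for iPS-MG against iPSC, from 0.03 to 0.15 for NSC against iPSC, from -0.07 to -0.22 for ad-MG against DC, from 0.05 to 0.20 for iPS-MG against ad-MG and from 0.06 to 0.21 for neo-MG against ad-MG. The interferon response genes called higher then numbered 16 in each of the last 2. It moved the share of higher calls over all genes in iPS-MG against ad-MG from 21.9% to 34.0%. The filter on low means kept 28 of the 31 genes and left out Mx1, Mx2 and Isg15. Replicate numbers did not pair the samples, since correlations of same-numbered deviations ran from -0.261 to 0.251. With the replicate block, 14 genes were higher in neo-MG than in ad-MG, as without it, and no call of the 31 genes changed. The cause of these moves was not tested. With 3 arrays per type and no detection calls, genes near 2-fold could fall on either side of the rule.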
